A study of Mus musculus with 9 samples.

Results

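The genes described here encode the collagens, the laminins, the nidogens Nid1 and Nid2, perlecan (Hspg2) and agrin (Agrn) of the mouse sciatic nerve. They were chosen by symbol, as every numbered collagen chain, every alpha, beta and gamma chain of laminin, Nid1, Nid2, Hspg2 and Agrn, and kept where their mean over 9 libraries reached 1. Of 59 such symbols 50 passed this minimum, among 15014 of the 36121 genes in the table that did. The other 9 lay below it, with means between 0.0905 (Col10a1) and 0.948 (Col6a6), and among them were Lama1 (0.179) and Col4a6 (0.0961). The 50 members were sorted by their role into 19 basal lamina genes, 11 fibrillar collagens, 7 fibril-associated collagens, 4 chains of collagen VI, 5 network and other collagens, the 2 multiplexins Col15a1 and Col18a1 and the 2 transmembrane collagens Col17a1 and Col23a1.

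Sciatic nerves of 9 C57BL6 mice aged 21 days were sequenced to compare gene expression after loss of TDP-43, the RNA-binding protein that Tardbp encodes. The cKO mice carried Cnp-Cre and a floxed Tardbp on both alleles, the cHet mice carried Cnp-Cre and 1 floxed allele, and the control mice carried floxed Tardbp on both alleles without Cre (3 mice each, 2 females and 1 male per group). Every group thus carried at least 1 floxed allele, and every mouse of the cKO and cHet groups also the Cre allele at the Cnp locus. This Cre is active in Schwann cells and oligodendrocytes. Which other cells of these nerves kept TDP-43 was not measured. Groups follow the sample titles. The genotype fields of 3 libraries differ from their titles: cKO mice ID-2744 and ID-2747 are given as Cnp-Cre with 1 floxed allele, and cHet mouse ID-2742 as floxed without Cre. Tardbp lay between 94.2 and 103 in the cKO nerves, between 177 and 186 in the cHet nerves and between 185 and 217 in the control nerves, so that the levels followed the titles for the cKO. Cnp was at 640 in cHet mouse ID-2742 and at 849 and 803 in the other cHet nerves. It lay between 498 and 799 in the cKO nerves and between 1168 and 1700 in the control nerves, so that cHet mouse ID-2742 lay with the other carriers of Cre.

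Values are in normalized TPM, a level per transcript length that can be compared between genes. Values of single nerves are given in the order of mice ID-2744, ID-2747 and ID-2748 for the cKO, ID-2742, ID-2745 and ID-2750 for the cHet and ID-2743, ID-2746 and ID-2754 for the control. The depth of the libraries cannot be read from TPM, and no interval for counting error is given. Of 10 markers of myelinating Schwann cells all 10 reached 1 in at least 1 library, and Sox10, a transcription factor of Schwann cells, lay between 279 and 370.1 in the cKO nerves, between 228 and 344 in the cHet nerves and between 247 and 530.3 in the control nerves. Markers of other cell types varied within groups: over lists of 10 genes each, the mean log2 level of skeletal muscle markers stood 5.09 and 6.15 above the median nerve in cKO mouse ID-2748 and control mouse ID-2743. Neuron markers stood 2.50, 2.38 and 3.66 above it in cKO mouse ID-2748, cHet mouse ID-2742 and control mouse ID-2746, and adipocyte markers 2.09 and 2.56 above it in control mice ID-2743 and ID-2754. Fibroblast markers ranged from -0.72 in cKO mouse ID-2747 to 0.86 in control mouse ID-2743. Perineurial markers ranged from -0.65 in cHet mouse ID-2745 to 0.71 in cHet mouse ID-2742. Pericyte and smooth muscle markers ranged from -0.29 in control mouse ID-2746 to 0.84 in control mouse ID-2743. Markers of endothelium ranged from -0.27 to 0.40. Those of myelinating Schwann cells ranged from -0.15 in cHet mouse ID-2742 to 0.35 in control mouse ID-2754. The part of these cells in the levels of members was not tested.

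Each myelinating Schwann cell unit is wrapped in a basal lamina that the Schwann cell itself lays down, a sheet of laminin and collagen IV polymers joined by nidogens and perlecan and held to the cell through integrins and dystroglycan. Laminins are trimers of an alpha, a beta and a gamma chain, and the loss of the alpha chain encoded by Lama2 causes a dysmyelinating neuropathy in mice and in patients. Outside this sheet run the fibrils of collagens I, III and V. Collagens I and III are made largely by the fibroblasts of the endoneurium and the epineurium.

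Col4a1 and Col4a2, which encode the common chains of collagen IV, lie head to head on chromosome 8, and in the annotation of GRCm38 their start sites are 21 bases apart with 22 bases of shared exon. The windows around these starts are shown because both chains are read from this short stretch and their ratio is one of the measurements below. They reach from 250 bases before to 50 bases after each start (RefSeq, GRCm38.p6) and share 78 bases, and the capitals mark matches on either strand to the CCAAT box, to the GC box GGGCGG and to the TATA box TATAAA.
Col4a1, minus strand, chr8:11312777-11313076: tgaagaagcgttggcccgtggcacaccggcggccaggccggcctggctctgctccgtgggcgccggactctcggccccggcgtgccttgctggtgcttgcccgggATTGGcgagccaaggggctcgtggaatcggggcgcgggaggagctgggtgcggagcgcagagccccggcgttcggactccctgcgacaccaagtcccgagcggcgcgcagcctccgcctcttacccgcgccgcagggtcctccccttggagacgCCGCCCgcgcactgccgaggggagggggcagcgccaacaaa
Col4a2, plus strand, chr8:11312555-11312854: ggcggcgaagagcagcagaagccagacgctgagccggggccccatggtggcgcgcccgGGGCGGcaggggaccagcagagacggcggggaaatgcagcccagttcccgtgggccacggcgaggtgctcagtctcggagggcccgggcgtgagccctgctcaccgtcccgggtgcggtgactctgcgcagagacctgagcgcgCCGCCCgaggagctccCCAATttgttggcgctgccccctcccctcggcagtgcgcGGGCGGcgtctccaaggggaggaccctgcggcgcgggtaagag
The windows held 2 distinct matches to CCAAT, 3 to GGGCGG and 0 to TATAAA, and 1 of the GGGCGG matches lay in the stretch that both windows share. CCAAT was found in 37.4%, GGGCGG in 35.7% and TATAAA in 13.6% of 32851 windows of the same length, so that none of these matches is particular to the pair. A match describes these letters and is no evidence of a bound factor. GC content was 74% and 73.7%, against a median of 52.7% over all windows. The other pairs of collagen IV genes are also head to head, with starts 72 bases apart for Col4a3 and Col4a4 and 1309 bases apart for Col4a5 and Col4a6.

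Fibrillar collagens held the highest levels in the nerve. Col3a1 had a mean of 2230 over the 9 libraries, Col1a2 1277 and Col1a1 827, while Col24a1, Col11a2 and Col2a1 of the same class were at 13.8, 8.02 and 3.13. Among the basal lamina genes Col4a1 (418), Hspg2 (337), Lamb1 (321), Col4a2 (267), Lamc1 (242) and Nid1 (218) stood highest. Col15a1, a multiplexin that bridges basal laminae and fibrils, was at 413. All members together made up 0.629% to 1.06% of the summed values of a library. The plot of levels by class shows each nerve.

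**Figure D1:**
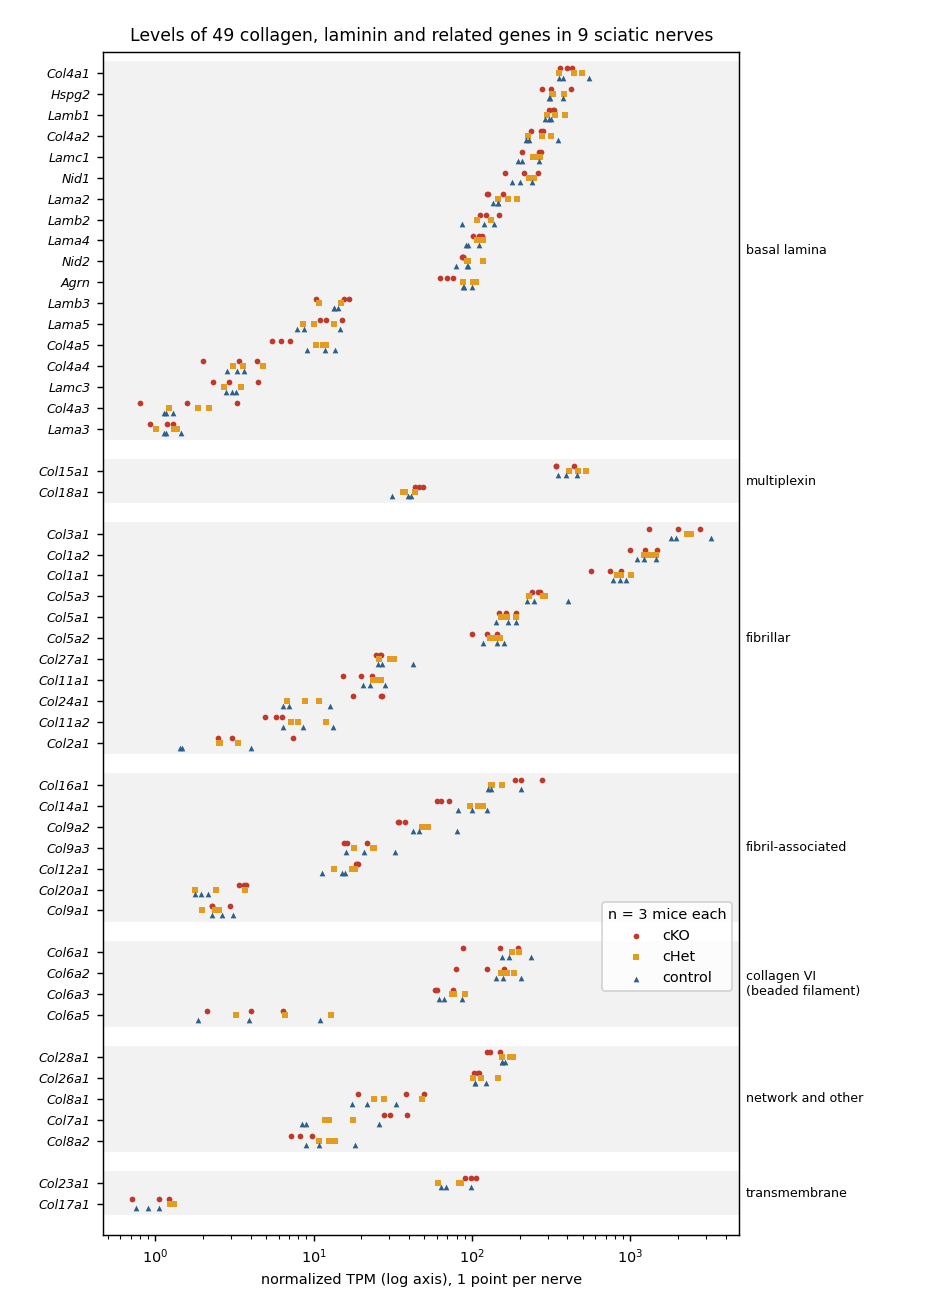
Level of 49 of the 50 members in each of the 9 sciatic nerves, in normalized TPM on a log axis, grouped by class, with 1 point per nerve in cKO, cHet and control (n = 3 mice each). Col3a1 has the highest mean (2230) and Col17a1 the lowest (1.05), and for most members the 3 groups overlap.

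Laminins carry the basal lamina of the nerve. Lama2, the alpha chain of the Schwann cell laminin, was at 158, 124 and 127 in cKO nerves, 146, 192 and 169 in cHet nerves and 146, 135 and 145 in control nerves. These groups overlapped, with a log2 fold change of -0.07 in cKO against control (95% interval -0.37 to 0.22, adjusted p = 0.889 from limma) and of -0.31 in cKO against cHet (-0.60 to -0.02, adjusted p = 0.312). Lama4, an alpha chain of vessels and of developing nerve, was at 116, 111 and 102 in cKO nerves, 107, 118 and 109.6 in cHet nerves and 111, 90.96 and 93.7 in control nerves. Lama5, an alpha chain found in many basement membranes, was low and was at 11.02, 15.00 and 12.04 in cKO nerves, 8.55, 10.1 and 13.4 in cHet nerves and 7.85, 8.73 and 14.7 in control nerves, where control mouse ID-2754 stood apart from the other control nerves and within the range of the cKO. Lama3 had a mean of 1.203 and Lama1 was below the minimum.

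Among the partner chains, Lamb1 was at 328, 327 and 307 in cKO nerves, 296, 385 and 335 in cHet nerves and 306, 289.9 and 316 in control nerves. Lamb2, the beta chain of synaptic laminins, was at 147, 113 and 122 in cKO nerves, 131, 107 and 132 in cHet nerves and 119, 86.7 and 137 in control nerves. Lamc1, the gamma chain of nearly all laminins of the nerve, was at 273, 263 and 207 in cKO nerves, 259, 268 and 244 in cHet nerves and 265, 207 and 195 in control nerves. No laminin chain separated the cKO from the control nerves, and the 10 chains above the minimum had log2 fold changes between -0.10 (Lama3) and 0.31 (Lama5) in this comparison. Lamb3 and Lamc3 had means of 13.3 and 3.07. Exons of 14 members share bases with another gene of the annotation, 11 of them with a gene on the other strand (Lama2 with Gm48084 over 631 bases, Nid2 with Rtraf over 437 and Nid1 with Gm48682 over 143, for example), and whether strand was used in the authors' quantification is not given in the sources used here.

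Taken as shares within a library, which do not depend on how libraries were scaled, Lama2 gave 52.2% ± 2.899 in cKO nerves, 57.6% ± 2.098 in cHet nerves and 56.4% ± 1.28 in control nerves of the summed alpha chains (SD, n = 3 each). The share of Lama4 was 42.3% ± 1.902 in cKO nerves, 38.2% ± 2.06 in cHet nerves and 38.9% ± 2.42 in control nerves. The ratio of Lama2 to Lama4 was 1.36, 1.11 and 1.25 in cKO nerves, 1.37, 1.62 and 1.54 in cHet nerves and 1.32, 1.49 and 1.55 in control nerves. It was lower in every cKO nerve than in every cHet nerve, while cKO mouse ID-2744 lay above control mouse ID-2743. Lamc1 made up 96.2% to 98.1% of the gamma chains and Lamb1 66.7% to 75.9% of the beta chains in the 9 nerves.

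Collagen IV gives the basal lamina its second network. Col4a1 was at 431, 396 and 358 in cKO nerves, 354, 498 and 443 in cHet nerves and 375, 354 and 549 in control nerves. Col4a2 was at 281, 273 and 236 in cKO nerves, 224, 314 and 275 in cHet nerves and 231, 218 and 347 in control nerves. The levels of both chains were highest in control mouse ID-2754 and lowest in control mouse ID-2746, so that the control nerves spanned all cKO nerves, with log2 fold changes of -0.08 (95% interval -0.52 to 0.35) and 0.02 (-0.42 to 0.46) in cKO against control. Col4a3 and Col4a4, chains of the kidney and of other specialised basement membranes, had means of only 1.61 and 3.44.

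Although the levels of Col4a1 and Col4a2 varied by 1.55 and 1.59 times between nerves, their ratio varied little. Col4a1 over Col4a2 was 1.53, 1.45 and 1.51 in cKO nerves, 1.58, 1.59 and 1.61 in cHet nerves and 1.63, 1.62 and 1.58 in control nerves. Every cKO nerve was below every cHet and every control nerve, with a difference of -0.11 between cKO and control means and of -0.09 between cKO and cHet means. In a two-sided exact permutation test both comparisons gave p = 0.1, the smallest that 3 mice against 3 allow, and p = 0.54 after Benjamini-Hochberg adjustment over 27 comparisons of 9 ratios. Whether reads over the shared exon bases were given to one gene or the other is not known.

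Col4a5, an X-linked chain of collagen IV that is mutated in Alport syndrome (chromosome X, 141475385 to 141689234, plus strand), was at 7.06, 5.49 and 6.17 in cKO nerves, 10.3, 11.96 and 11.4 in cHet nerves and 13.6, 9.02 and 11.7 in control nerves. All 3 cKO nerves were below all cHet and all control nerves, and the cKO mean of 6.24 ± 0.788 was 54.5% of the control mean of 11.4 ± 2.30 (SD, n = 3 each). The log2 fold change was -0.81 against control (95% interval -1.19 to -0.44) and -0.80 against cHet (-1.18 to -0.42). Over 15014 genes neither difference reached the threshold of 0.05 (adjusted p = 0.0568 against control and 0.0562 against cHet, limma). When the fit left out control mouse ID-2746, Col4a5 passed in both (adjusted p = 0.0344 and 0.0371), and it passed against cHet with libraries rescaled to the same sum (0.0492). Leaving out a control nerve does not change the fold change against cHet, only the spread shared by all groups and the genes tested. These were its only passes, in 1 of 24 alternatives against control and in 2 of 24 against cHet. Its share of collagen IV was 0.934% ± 0.1096 in cKO nerves, 1.57% ± 0.142 in cHet nerves and 1.67% ± 0.4604 in control nerves. Its neighbour Col4a6 had at most 0.121 in any nerve.

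Nid1, which joins laminin to collagen IV, was at 260.1, 161 and 212 in cKO nerves, 229.8, 246 and 232 in cHet nerves and 238, 179 and 200.4 in control nerves. Nid2, its paralogue, was at 87.5, 87.5 and 85.9 in cKO nerves, 94.9, 117 and 93.5 in cHet nerves and 94.1, 79.5 and 92.5 in control nerves. Its cKO nerves lay within 85.9 to 87.5, below all cHet nerves and inside the range of the control nerves. Hspg2, the core protein of the heparan sulfate proteoglycan perlecan, was at 313, 424 and 276 in cKO nerves, 323, 382 and 318 in cHet nerves and 308, 313 and 374 in control nerves. Cell by cell composition was not measured, and fewer cells of a type and less RNA per cell cannot be told apart in these bulk samples.

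Agrn, the proteoglycan that gathers acetylcholine receptors at the neuromuscular synapse and also binds laminin and dystroglycan (chromosome 4, 156165290 to 156197488, minus strand), was at 69.2, 75.3 and 62.4 in cKO nerves, 87.7, 106 and 102 in cHet nerves and 87.7, 89.2 and 101 in control nerves. The cKO nerves were all below the cHet and the control nerves, and the cKO mean of 68.99 ± 6.46 stood against 98.4 ± 9.59 in the cHet and 92.5 ± 7.03 in the control (SD, n = 3 each), or 70.1% and 74.6% of these. The log2 fold change was -0.42 against control (95% interval -0.67 to -0.17, adjusted p = 0.1198 from limma) and -0.51 against cHet (-0.76 to -0.26, adjusted p = 0.0624). Against cHet it passed when libraries were rescaled to the same sum (0.0234) or after quantile normalization (0.0298). These were the only 2 of 24 alternatives in which Agrn passed against cHet, and against control it passed in 0 of 24.

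The multiplexins are collagens that carry heparan or chondroitin sulfate at the edge of basal laminae, and neither passed the threshold. Col15a1 was at 438, 340.4 and 338 in cKO nerves, 468, 525 and 408 in cHet nerves and 459.9, 390.2 and 350.2 in control nerves, and its groups overlapped. Col18a1, the source of the fragment endostatin, was at 49.1, 43.9 and 46.1 in cKO nerves, 36.7, 43.5 and 37.9 in cHet nerves and 39.4, 31.3 and 41.1 in control nerves. Its cKO nerves were all above the other nerves, by a log2 fold change of 0.32 against control (95% interval 0.04 to 0.60, adjusted p = 0.308 from limma) and 0.23 against cHet (adjusted p = 0.426), which did not pass the threshold.

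Of the fibrillar collagens, Col1a1 and Col1a2 encode the chains of collagen I, the main fibril of the nerve sheath. Col1a1 was at 869.8, 565 and 741 in cKO nerves, 823, 1009 and 868 in cHet nerves and 936, 773 and 863 in control nerves. Col1a2 was at 1477, 997 and 1231 in cKO nerves, 1214, 1447 and 1337 in cHet nerves and 1463, 1102 and 1225 in control nerves. The cKO mouse ID-2747 had the lowest level of both, and all groups overlapped, with log2 fold changes of -0.26 (Col1a1, 95% interval -0.65 to 0.13) and -0.04 (Col1a2, -0.44 to 0.36) in cKO against control.

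Within a library the chains of collagen I kept a steadier relation than their levels. Col1a1 over Col1a2 was 0.589, 0.566 and 0.602 in cKO nerves, 0.678, 0.697 and 0.649 in cHet nerves and 0.6400, 0.702 and 0.704 in control nerves. All 3 cKO nerves were below all other nerves, by -0.10 against the control mean and -0.09 against the cHet mean. The two-sided exact permutation test again gave the smallest possible p of 0.1 in both comparisons (p = 0.54 after adjustment over the 27 comparisons). Of the 9 ratios of chains computed, 2 were lower in every cKO than in every control nerve, 3 were lower in every cKO than in every cHet nerve and 0 were higher. These counts share the same cKO nerves. No share over ratios of other gene pairs was computed, so the counts cannot be set against all genes. Between cHet and control 0 ratios were separated.

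**Figure D2:**
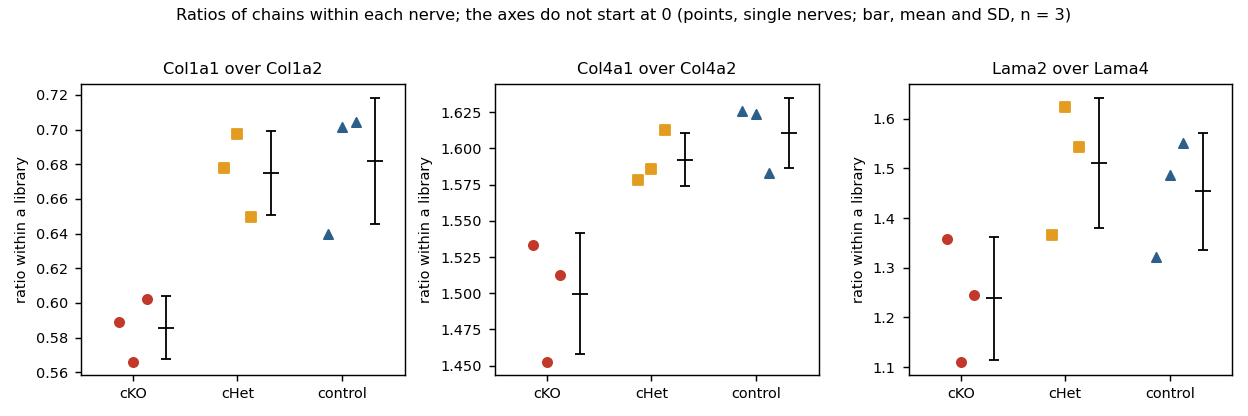
Ratio of Col1a1 to Col1a2, of Col4a1 to Col4a2 and of Lama2 to Lama4 within each library, for cKO, cHet and control nerves (points, single nerves; bars, mean and SD, n = 3 each; axes do not start at 0). In the first and second panels every cKO nerve is below every other nerve, at no more than 0.602 and 1.53; in the Lama2 panel cKO and control overlap.

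Col3a1, the collagen of the thin reticular fibrils of the endoneurium, was at 2745.1, 1315 and 1996 in cKO nerves, 2296, 2427 and 2335 in cHet nerves and 3210, 1931 and 1815 in control nerves. It spanned 2.44 times between cKO mouse ID-2747 and control mouse ID-2743, the nerves with the lowest and the highest fibroblast markers. Fibroblast markers were also low, at -0.61 each, in cHet mouse ID-2745 and control mouse ID-2746, where Col3a1 was at 2427 and 1931. The part of fibroblast content in this spread was not tested. Collagen V limits the width of fibrils, and its chains Col5a1, Col5a2 and Col5a3 had log2 fold changes of 0.00, -0.20 and -0.14 in cKO against control. Col5a1 was at 189, 148 and 163 in cKO nerves, 152, 190.3 and 166 in cHet nerves and 168, 141 and 191 in control nerves. Col5a2 was at 143, 99.4 and 124 in cKO nerves, 129.7, 149.6 and 137 in cHet nerves and 160.1, 117 and 143 in control nerves. Col5a3, the most abundant of them, was at 269.6, 261 and 238 in cKO nerves, 228, 290.3 and 280.0 in cHet nerves and 247, 221 and 406 in control nerves. In each chain the groups overlapped, and for Col5a3 control mouse ID-2754 stood far above the others.

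Col24a1, a minor fibrillar collagen known from developing bone and eye (chromosome 3, 145292472 to 145552011, plus strand), was the only member called in any comparison. It was at 26.7, 17.7 and 27.1 in cKO nerves, 8.75, 6.797 and 10.8 in cHet nerves and 6.38, 7.01 and 12.6 in control nerves. All cKO nerves were above all cHet and control nerves. The cKO mean of 23.8 ± 5.305 was 2.75 times the control mean of 8.66 ± 3.42 and 2.72 times the cHet mean of 8.77 ± 1.99 (SD, n = 3 each). It rose by a log2 fold change of 1.45 against control (SE 0.28, 95% interval 0.80 to 2.09, adjusted p = 0.0492 from limma), and against cHet the value was 1.39 (0.74 to 2.04), which missed the threshold (adjusted p = 0.0544).

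The call of Col24a1 lay at the edge of the threshold. Against control it was kept in 5 of 24 alternatives, among them a pseudocount of 1 (adjusted p = 0.0479 from limma), a minimum mean of 5 (0.0408) and sex as a covariate (0.0226). It was lost without any 1 of cKO mice ID-2744, ID-2747 and ID-2748, cHet mice ID-2742, ID-2745 and ID-2750 or control mice ID-2743 and ID-2746 (0.0715 to 0.183) and kept without control mouse ID-2754 (0.026). Its log2 fold change stayed between 1.17 and 1.73 over all alternatives. With the nerves high in neuron markers left out it was 1.23 (adjusted p = 0.319), and with those high in skeletal muscle markers left out 1.17 (0.265).

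Of the other minor fibrillar chains, Col11a2 of cartilage fibrils was at 6.27, 4.92 and 5.74 in cKO nerves, 7.15, 11.99 and 7.97 in cHet nerves and 6.37, 8.53 and 13.2 in control nerves. Its cKO nerves were below all others, control mouse ID-2743 by a narrow margin, with a log2 fold change of -0.63 against control (95% interval -1.26 to -0.01, adjusted p = 0.3795 from limma). Col11a1, Col27a1 and Col2a1 had means of 22.9, 28.96 and 3.13, and their cKO and control nerves overlapped.

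Among the fibril-associated collagens, which decorate the surface of fibrils and form none themselves, 0 of 7 passed the threshold in any comparison. Col16a1 was at 205, 278 and 186 in cKO nerves, 132, 155 and 134 in cHet nerves and 132, 126 and 203 in control nerves. Its cKO nerves were above all cHet nerves (log2 fold change 0.65, 95% interval 0.18 to 1.12, adjusted p = 0.194 from limma), while control mouse ID-2754 lay within their range (0.55 against control, adjusted p = 0.303). Col14a1, undulin, a collagen that sits on collagen I fibrils (chromosome 15, 55307750 to 55520803, plus strand), was at 72.1, 60.5 and 63.7 in cKO nerves, 96.6, 117 and 109 in cHet nerves and 124, 81.9 and 100.4 in control nerves. All cKO nerves were below all other nerves, and their mean reached 60.8% of that of the cHet and 64.0% of that of the control. The log2 fold change of Col14a1 was -0.62 against control (95% interval -0.98 to -0.27, adjusted p = 0.106 from limma) and -0.71 against cHet (-1.07 to -0.36, adjusted p = 0.0649). Against cHet it passed in 5 of 24 alternatives, among them those without control mouse ID-2743 (0.0416) and without control mouse ID-2746 (0.0401).

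Col9a2, a chain of the cartilage collagen IX, was at 34.2, 37.8 and 34.7 in cKO nerves, 49.4, 52.5 and 48.5 in cHet nerves and 42.6, 46.1 and 80.8 in control nerves. Its cKO nerves were below the rest, and the control nerves were spread by mouse ID-2754 (log2 fold change -0.60 against control, adjusted p = 0.263 from limma, and -0.49 against cHet, adjusted p = 0.337). Without control mouse ID-2754 the adjusted p against cHet became 0.0344 at the same fold change, since that mouse adds to the spread shared by all groups. Without that mouse the value of Col9a2 against control was -0.315 (adjusted p = 0.203). Col9a2 passed in 1 of 24 alternatives against cHet and in 0 of 24 against control. Col20a1 was low and was at 3.64, 3.396 and 3.72 in cKO nerves, 2.42, 1.78 and 3.69 in cHet nerves and 1.78, 2.14 and 1.94 in control nerves. Its cKO nerves were above the control nerves (log2 fold change 0.74, adjusted p = 0.214 from limma) and overlapped the cHet nerves. Col12a1, a partner of collagen I fibrils in tendon and fascia, was at 18.5 to 19.02 in the cKO nerves, 13.3 to 18.3 in the cHet nerves and 11.3 to 15.8 in the control nerves (0.42 against control, adjusted p = 0.2997).

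Collagen VI forms beaded filaments between basal laminae and fibrils. Col6a1 was at 194, 87.5 and 149 in cKO nerves, 199, 199 and 179.7 in cHet nerves and 236, 155 and 172 in control nerves. Col6a2 was at 159, 78.97 and 124 in cKO nerves, 165, 183 and 153 in cHet nerves and 203, 142 and 156 in control nerves. Col6a3 was at 75.6, 58.4 and 60.2 in cKO nerves, 90.9, 75.1 and 77.1 in cHet nerves and 86.6, 61.5 and 66.6 in control nerves. In these 3 chains cKO mouse ID-2747 was the lowest nerve and the groups overlapped. The log2 fold changes of all 4 chains tested were negative in cKO against control, with a median of -0.31 and adjusted p between 0.432 and 0.952 from limma, and negative in cKO against cHet, with a median of -0.51. The values against control rested on single nerves: without cKO mouse ID-2747 they were -0.11 for Col6a1, -0.24 for Col6a2 and -0.07 for Col6a3, and without control mouse ID-2743 they were -0.26 for Col6a1, -0.36 for Col6a2 and 0.00603 for Col6a3. Against cHet, the weakest values with 1 library left out were -0.176 for Col6a1, -0.25 for Col6a2 and -0.242 for Col6a3. Fibroblast markers were also lowest in cKO mouse ID-2747, and their part in these values was not tested. These markers were low as well, at -0.61 each, in cHet mouse ID-2745 and control mouse ID-2746, where Col6a1 was at 199 and 155.

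Of the network and other collagens, Col28a1 is known for its expression in peripheral nerve, around Schwann cells. It was at 131, 124 and 151 in cKO nerves, 154, 182 and 174 in cHet nerves and 154, 154 and 161 in control nerves. Its cKO nerves lay below all others, below control mouse ID-2746 by a small margin, with a log2 fold change of -0.21 against control (95% interval -0.44 to 0.02, adjusted p = 0.439 from limma) and -0.33 against cHet (-0.56 to -0.10, adjusted p = 0.176). Col7a1, the collagen of the anchoring fibrils of skin (chromosome 9, 108953586 to 108984875, plus strand), was at 30.4, 38.9 and 27.9 in cKO nerves, 11.9, 12.5 and 17.7 in cHet nerves and 8.42, 8.999 and 25.8 in control nerves. The cKO nerves were above all others, while control mouse ID-2754 was far above the other control nerves. The log2 fold change of Col7a1 was 1.32 against control (95% interval 0.44 to 2.20, adjusted p = 0.173 from limma) and 1.19 against cHet (0.31 to 2.07, adjusted p = 0.202). Without control mouse ID-2754 it was 1.82 against control (adjusted p = 0.0139), and the comparison with cHet then passed too (0.0289). Col7a1 passed in 1 of 24 alternatives against control and in 3 of 24 against cHet.

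Col26a1 was at 111, 109 and 102 in cKO nerves, 102, 147 and 115 in cHet nerves and 104, 104 and 123 in control nerves, and its groups overlapped. Col8a1, a short-chain collagen of vessels, was at 49.6, 19.03 and 38.5 in cKO nerves, 48.1, 23.9 and 27.9 in cHet nerves and 33.1, 21.9 and 17.4 in control nerves, with a spread of 2.86 times between nerves that did not follow the groups. Of the transmembrane collagens, Col23a1 was at 99.2, 106 and 90.5 in cKO nerves, 61.1, 82.8 and 85.4 in cHet nerves and 64.1, 68.6 and 98.98 in control nerves. Its cKO nerves were above all cHet nerves, and control mouse ID-2754 lay among them. Col17a1, the hemidesmosome collagen of skin, was near the minimum of 1 and was at 1.22, 0.711 and 1.05 in cKO nerves, 1.31, 1.24 and 1.24 in cHet nerves and 0.758, 1.05 and 0.895 in control nerves.

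**Figure D3:**
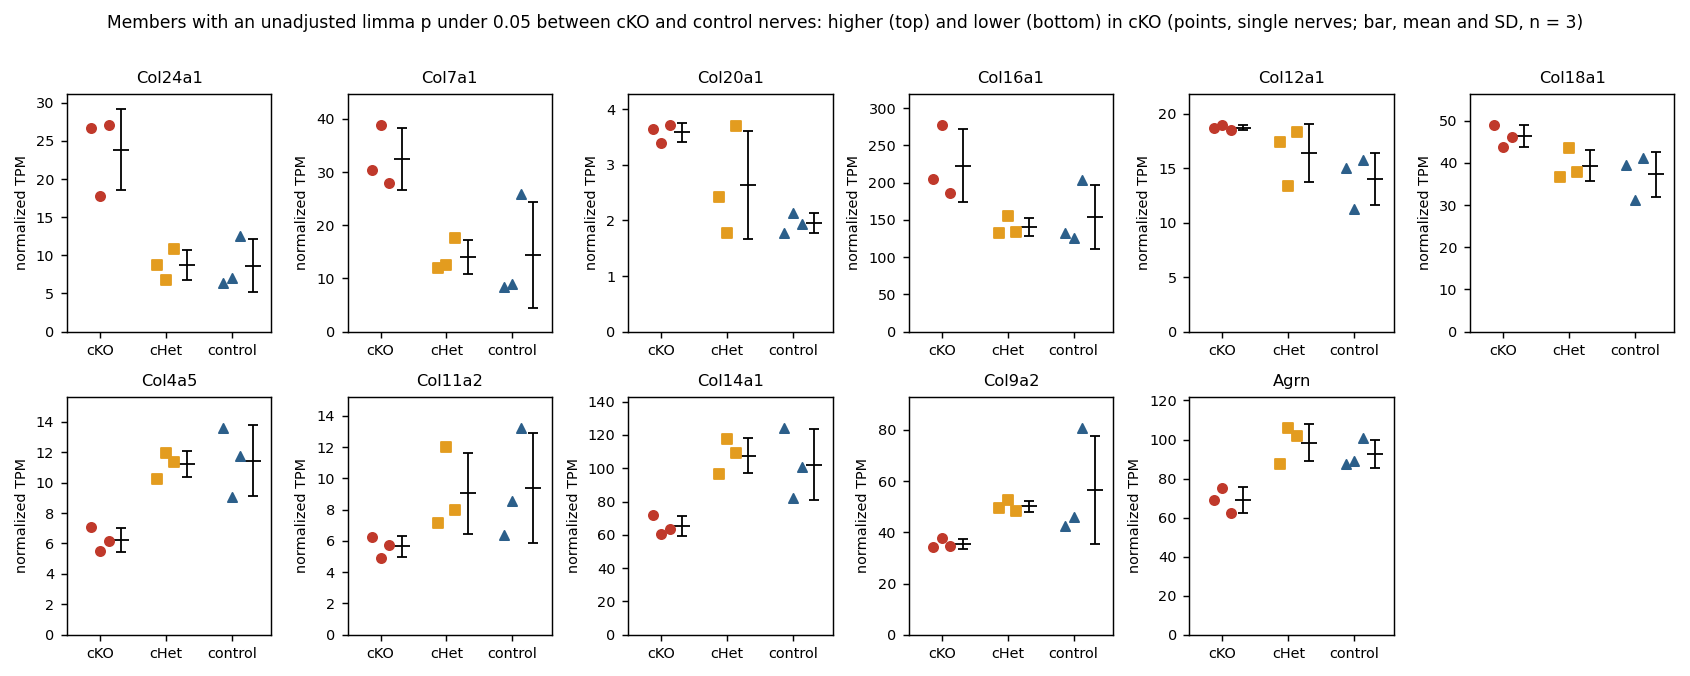
Levels in normalized TPM of the 11 members with an unadjusted limma p under 0.05 between cKO and control nerves, 6 higher in the cKO (top row) and 5 lower (bottom row), with cKO, cHet and control side by side (points, single nerves; bars, mean and SD, n = 3 each). Only Col24a1 passed after adjustment over all genes (adjusted p = 0.0492). Control mouse ID-2754 is the highest control point in Col24a1, Col7a1, Col16a1, Col11a2, Col9a2, Agrn, Col12a1 and Col18a1.

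Over all members, cKO against control called 1 of 50 higher (Col24a1) and 0 lower at an adjusted p under 0.05 from limma, where 0.932% of all genes tested were called higher and 0.633% lower. At an unadjusted p under 0.05, 6 members were higher and 5 lower, or 12% and 10% of the members, against 6.45% and 6.44% of all genes. The groups did not overlap for 5 members that were higher in the cKO (Col24a1, Col7a1, Col20a1, Col12a1 and Col18a1) and 6 that were lower (Col4a5, Col11a2, Col14a1, Col9a2, Agrn and Col28a1), against 8.85% and 8.57% of all genes. The shares without overlap, 10% and 12% of the members, are near those of all genes. At 3 mice a group, members with smaller differences would not have been called, and a p above the threshold does not show equal levels.

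In cKO against cHet, 0 members were called in either direction, where 0.932% of genes were called higher and 0.773% lower by limma. At an unadjusted p under 0.05 3 members were higher (Col24a1, Col16a1 and Col7a1) and 6 lower (Col4a5, Agrn, Col14a1, Col28a1, Lama2 and Col9a2). These were 6% and 12% of the members, against 7.89% and 6.69% of all genes. The groups did not overlap for 6 members that were higher, against 13.3% of all genes, and for 10 that were lower, against 11% of all genes, or 12% and 20% of the members. The 10 lower members were Col4a5, Agrn, Col14a1, Col28a1, Col9a2, Col11a2, Col11a1, Col8a2, Nid2 and Col17a1. Of the 50 members 35 had a negative log2 fold change in this comparison and their median was -0.12, where 7125 of 15014 genes were negative and the median was 0.02. In cKO against control 27 members were negative with a median of -0.04, where 8050 genes were negative and the median was -0.02. Both comparisons share the cKO nerves and are not independent.

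With libraries rescaled to the same sum, the calls over all genes in cKO against cHet were 90 higher and 202 lower, where the values as deposited gave 140 higher and 116 lower, and the median of all genes moved to -0.12, against 0.02 as deposited. Under this rescaling 3 members were called lower against cHet, Col4a5, Agrn and Col14a1. The largest summed library was cKO mouse ID-2747 and the smallest cHet mouse ID-2750, at 1158094 and 934932.

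In cHet against control, 0 members were called, 0 had an unadjusted p under 0.05 and 1 did not overlap (Col17a1, higher in cHet). Over all genes limma called 0% higher and 0% lower, while 0.813% were higher and 1.9% lower at an unadjusted p under 0.05, and 2.69% did not overlap in the higher and 4.41% in the lower direction. The log2 fold changes of the members lay between -0.18 (Col9a1) and 0.53 (Col6a5) in this comparison, and 37 of 50 were positive, against 6518 of 15014 genes. Their median was 0.08, against -0.03 over all genes. This comparison shares the control nerves with that of cKO against control.

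**Figure D4:**
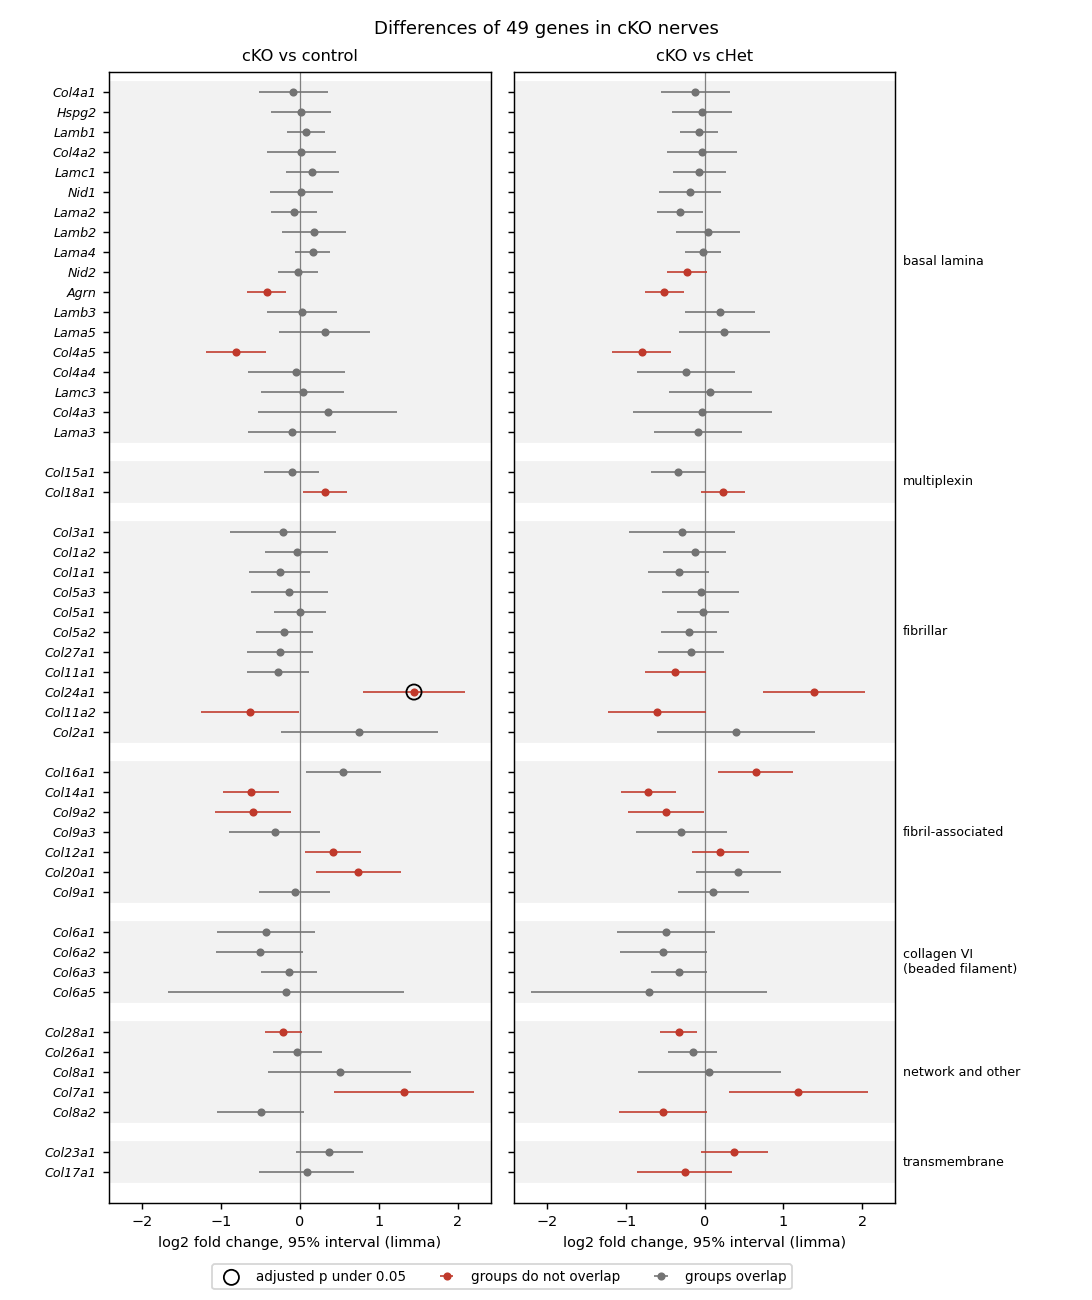
Log2 fold change of 49 of the 50 members with its 95% interval from limma, for cKO against control (left) and cKO against cHet (right), by class. Red points mark members whose groups do not overlap (11 at left and 16 at right), and the circle marks Col24a1, the member with an adjusted p under 0.05; most other intervals include 0.

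Basal lamina and fibrillar genes were set against each other as classes. In cKO against control the 19 basal lamina genes had a median log2 fold change of 0.02, with 12 positive and 7 negative, and the 11 fibrillar genes a median of -0.20, with 3 positive and 8 negative, beside -0.02 over all genes tested. In cKO against cHet the medians were -0.07 (5 positive and 14 negative) and -0.18 (2 positive and 9 negative), beside 0.02 over all genes. In cHet against control they were 0.09 and 0.06, beside -0.03. The fibrillar median in cKO against control was -0.0604 without cKO mouse ID-2747, -0.0584 without control mouse ID-2754 and -0.0989 without control mouse ID-2743. It stayed negative, between -0.31 and -0.06, when any single nerve was left out. It was 0.0275 when control mice ID-2743 and ID-2754, high in adipocyte markers, were left out together. That fit kept only control mouse ID-2746 in its group.

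The summed levels of the classes overlapped between groups. The basal lamina genes summed to 2351 ± 193 in cKO nerves, 2527 ± 244 in cHet nerves and 2338 ± 260.0 in control nerves (SD, n = 3 each). The fibrillar genes summed to 4603 ± 1163 in cKO nerves, 5235 ± 342 in cHet nerves and 5113 ± 1000 in control nerves. Fibrillar over basal lamina sums were 2.29, 1.44 and 2.14 in cKO nerves, 2.14, 2.01 and 2.08 in cHet nerves and 2.68, 2.09 and 1.82 in control nerves. The lowest ratio was that of cKO mouse ID-2747 and the highest that of control mouse ID-2743, which also had the lowest and the highest fibroblast markers. In cHet mouse ID-2745 and control mouse ID-2746, with fibroblast markers at -0.61 each, the ratio was 2.01 and 2.09. The part of fibroblast content in this ratio was not tested. Without weighting by level, the mean log2 level of basal lamina minus fibrillar genes was -1.14, -1.07 and -1.41 in cKO nerves, -1.06, -1.17 and -1.18 in cHet nerves and -1.10, -1.28 and -1.19 in control nerves, again with overlapping groups.

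**Figure D5:**
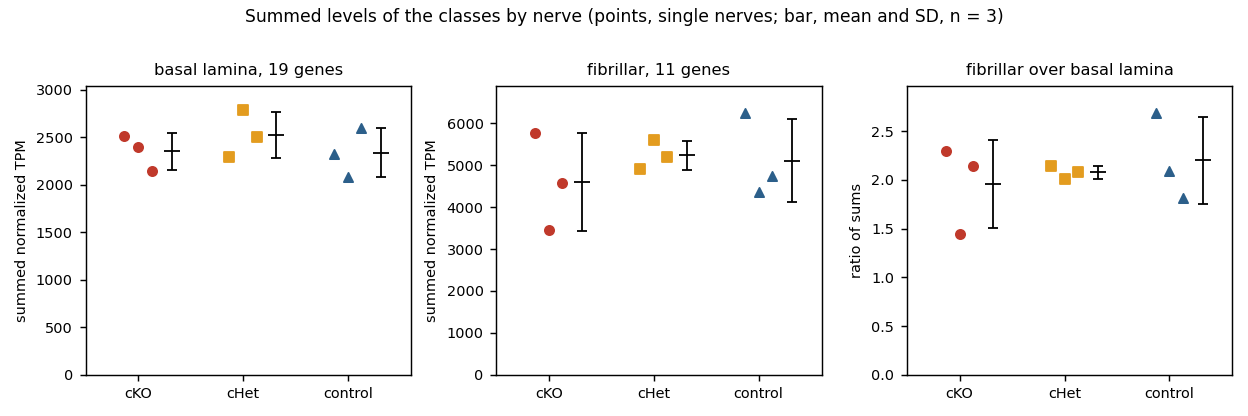
Summed normalized TPM of the 19 basal lamina genes (left) and the 11 fibrillar collagens (middle) and the ratio of the sums (right) in cKO, cHet and control nerves (points, single nerves; bars, mean and SD, n = 3 each). The groups overlap in all panels, and cKO mouse ID-2747 has the lowest fibrillar sum (3452) and the lowest ratio (1.44).

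Single nerves moved many members at once. The cKO mouse ID-2747 had the lowest value of 18 of the 50 members, 6 of them basal lamina and 6 fibrillar, and control mouse ID-2746 that of 13. The cKO mouse ID-2744 and control mouse ID-2754 had the highest value of 10 members each. In the cHet group mouse ID-2745 had the highest value of 9 members and mouse ID-2750 of 0.

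Genes that act on these proteins were counted from the same fit. Of 22 receptors of laminin and collagen, all tested, 1 was higher and 0 were lower in cKO against control, beside 0.932% and 0.633% of all genes, and 1 was higher and 1 lower in cKO against cHet, beside 0.932% and 0.773%. The gene that was higher in both was Itga7, the laminin-binding integrin alpha chain, at 123, 125 and 117 in cKO nerves, 88.95, 72.3 and 75.7 in cHet nerves and 75.2, 76.03 and 80.8 in control nerves. Every cKO nerve was above every other nerve, and Itga7 rose by 0.65 on the log2 scale against control (SE 0.09, adjusted p = 0.0158 from limma) and 0.62 against cHet (adjusted p = 0.0182). The call against control was lost without cKO mouse ID-2744, ID-2747 or ID-2748 or control mouse ID-2743 (0.0535 to 0.0917) and the call against cHet without cKO mouse ID-2744, ID-2747 or ID-2748 or cHet mouse ID-2745 or ID-2750 (0.0647 to 0.0936).

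Adgrg6, an adhesion receptor on Schwann cells that binds collagen IV and laminin and is required for myelination, was at 20.5, 19.1 and 18.8 in cKO nerves, 29.5, 31.3 and 30.6 in cHet nerves and 24.9, 23.6 and 24.9 in control nerves. Every cKO nerve was below every cHet and every control nerve, and every cHet nerve was above every control nerve. Adgrg6 had a log2 fold change of -0.63 against cHet and was called lower (adjusted p = 0.00995 from limma), whereas it was -0.33 against control (adjusted p = 0.0982). In cHet against control the value was 0.31, which was not called. The call against cHet was lost without cKO mouse ID-2748 or cHet mouse ID-2745 or ID-2750 (0.055 to 0.06).

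Of 20 genes of matrix degradation 18 were tested, and Timp1, an inhibitor of matrix metalloproteinases, was the 1 that passed. It was at 16.6, 19.7 and 24.6 in cKO nerves, 3.54, 2.698 and 4.43 in cHet nerves and 5.696, 4.22 and 3.499 in control nerves. Every cKO nerve was far above the others, and Timp1 rose by 2.07 on the log2 scale against control (adjusted p = 0.00557 from limma) and 2.36 against cHet (adjusted p = 0.00335), in every fit that left out 1 library. Of the 26 genes of collagen processing, such as prolyl hydroxylases, the chaperone Serpinh1 and lysyl oxidases, 25 were tested and 0 were called in any comparison, and the same held for the 24 genes of fibril-associated matrix, such as Dcn, Fn1 and Tnc. In cKO against control 3 genes were higher and 1 was lower at an unadjusted p under 0.05 in each of the 4 lists. The lists of receptors, degradation, processing and fibril-associated matrix held 22, 18, 25 and 24 tested genes. Of all genes 6.45% were higher and 6.44% lower by this measure. In cHet against control 0 genes of the 4 lists were called.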

How the data were processed

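RNA was extracted by the authors from frozen sciatic nerves and sequenced from Illumina TruSeq libraries. The authors deposited 1 table of 36121 genes and 9 libraries, a signal in normalized TPM, and kallisto 0.44.0 and sleuth 0.30.0 are listed with the build GRCm38 in the processing notes of the submitters. Library sums of 934932 to 1158094 show that the values were scaled further between libraries, by a method not given in the sources used here. All columns were used, and symbols were matched by Ensembl identifier for 35471 genes.

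Fold changes are on the log2 scale after adding 0.5 to each value, so those of low genes come out too small. Genes with a mean of at least 1 were fitted in 1 model over the 9 libraries by limma (version 3.58.1, R 4.3.3) with eBayes and a trend on the mean, with Benjamini-Hochberg adjustment over 15014 genes and a threshold of 0.05. Every adjusted p of a gene is from this fit unless a setting is named. The fit was also run on simulated data in which noise was drawn for each gene alone. Differences in cell content that move many genes of a nerve together were not simulated, and no result here rests on that run. Ratios of chains were compared by two-sided exact permutation tests. Replicates are separate mice by their identifiers.

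Values per nerve are given for a fixed list of members, those past 0.05, the 3 highest of each class and, per comparison, up to 5 non-overlapping members with the largest change. Other lists are named where past 0.05. Col12a1 was named after its values were seen. Members, lists and rules were chosen with earlier results of these data known. Alternatives were pseudocounts of 0.1 and 1, no minimum or a mean of at least 5, rescaling to the same sum, median of ratios, quantile normalization, only the 2 compared groups, sex as a covariate, eBayes without trend or robust, leaving out each library, leaving out the 3 libraries with differing genotype fields and, for the basal lamina class, adding collagens XV and XVIII. Leaving out nerves with high markers of neurons, of skeletal muscle or of adipocytes was added after seeing the data. Coordinates are from GENCODE M21, and promoter windows from RefSeq were found for 36 of the 50 members. The values of 1 member are not reported here by name.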

Additional observations from a re-analysis of the deposited data

How the results depend on the processing

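Counts of members called were small, so that single calls moved them. In cKO against control the count of 1 member higher became 0 with a pseudocount of 0.1, without a minimum, with libraries rescaled to the same sum, with median of ratios scaling, after quantile normalization, with only the compared groups in the fit, with eBayes without trend, with only libraries of matching genotype field, and with the nerves with high markers of neurons, of skeletal muscle or of adipocytes left out. It was 0 to 2 when 1 library was left out. The count of members lower in this comparison was 0 to 1 when 1 library was left out, 1 being Col4a5 without control mouse ID-2746.

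In cKO against cHet the count of 0 members higher became 1 with a mean of at least 5 (Col24a1) and with sex as a covariate (Col24a1), 2 with only the compared groups in the fit and 2 with the libraries high in adipocyte markers left out (Col24a1 and Col7a1 in each), and it was 0 to 2 when 1 library was left out. The count of 0 members lower became 3 with libraries rescaled to the same sum (Col4a5, Agrn and Col14a1), 1 after quantile normalization (Agrn), 1 with only the compared groups and 1 with the libraries high in adipocyte markers left out (Col14a1 in each), and it was 0 to 2 when 1 library was left out. In cHet against control no alternative called a member.

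Class medians moved by more than the pooled SD within groups of the mean log2 level of the class (0.141 for basal lamina and 0.157 for fibrillar genes) with the libraries high in adipocyte markers left out, to 0.0275 for the fibrillar genes in cKO against control, 0.29 for the basal lamina genes and 0.24 for the fibrillar genes in cHet against control, and with only libraries of matching genotype field, to -0.23 for the basal lamina genes in cKO against cHet. When 1 library was left out the basal lamina medians ranged from -0.10 to 0.09 in cKO against control, from 0.00165 to 0.19 in cHet against control and from -0.15 to 0.01 in cKO against cHet, and the fibrillar medians from -0.31 to -0.06, from -0.06 to 0.13 and from -0.26 to -0.06. Where a group kept 1 library (cKO under the genotype fields, control without the adipocyte-high mice), that library was assumed to vary like the others, and over all genes 0 were called under the genotype fields in cKO against control. Calls over all genes in cKO against control were 140 higher and 95 lower as deposited, 122 and 116 with libraries rescaled to the same sum, and 39 and 11 with only the compared groups.

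Timp1 was called against control in 20 of 24 alternatives and against cHet in 22, Itga7 in 15 and 15, and Adgrg6 against cHet in 18. No call reversed its direction. No paired analysis was possible because no replicate number is shared between groups and the labels do not say which mice formed a set of littermates. The cause of each moved count was not tested.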
